A study of Bos taurus with 12 samples.

Results

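Mitochondrial ribosomal proteins were examined as a family in elongated bovine conceptuses of different origin and in the fibroblasts that served as nuclear donors. The members were all array probe sets whose single gene symbol began with MRPL or MRPS and a number, and each gene was represented by its brightest probe set by mean over the 12 arrays. This gave 67 genes from 84 probe sets, out of 9155 named genes and 24016 probe sets without controls, and 53 of the 67 genes had 1 probe set. A further 11 gene symbols of this form are in the RefSeq gene list and were not analysed here: MRPL1, MRPL17, MRPL33, MRPL40, MRPL47, MRPL54, MRPS10, MRPS12, MRPS18C, MRPS21 and MRPS33. All 67 genes entered the tests, and 60 of them lay above a log2 signal of 4 on every array. Of the 67, 45 encode proteins of the large subunit, among them MRPS30 and MRPS18A in spite of their names, and 21 encode proteins of the small subunit. MRPS36 is counted apart, because it is now known as a subunit of the oxoglutarate dehydrogenase complex.

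There were 12 Affymetrix bovine genome arrays in 4 groups of 3. AI stands for artificial insemination, with embryos that formed in the cow, IVP for embryos made in vitro, and SCNT for somatic cell nuclear transfer, that is, cloning by moving a body cell's nucleus into an oocyte emptied of its own. Blastocysts of all 3 origins were transferred on day 7 into synchronized cows and recovered on day 16 at comparable lengths, and FB denotes the donor fibroblasts, which were never in a uterus. The labels give no breed, sex, donor line or pooling and do not say whether replicate arrays are different animals, so p-values measure the spread between these arrays, which may be technical. They also list the FB samples under embryo tissue, while their description calls them fibroblasts.

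The mitochondrial ribosome, or mitoribosome, translates the few messenger RNAs of the mitochondrial genome, which encode core subunits of the respiratory chain and the ATP synthase. Its ribosomal RNAs come from mitochondrial DNA, whereas its proteins are encoded in the nucleus, made in the cytosol and imported. Part of the proteins descend from the bacterial ribosome and the rest occur in mitochondria alone. The day 16 conceptus is made up mainly of trophoblast, which elongates rapidly at this stage and secretes interferon tau.

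Values are deposited log2 signals, differences are log2 differences between group means, and errors are SD with n = 3 unless stated otherwise. A change was called at an adjusted p under 0.05 (limma, Benjamini-Hochberg over all probe sets of the comparison). Between 6359 and 6643 probe sets per array, or 26.5% to 27.7%, lay above log2 4, which serves as the floor below which levels are not told apart. The median standard error of a member's difference was 0.15 between conceptus groups and 0.13 against fibroblasts, and the small number of arrays limits the precision. Of 11 trophoblast markers with a probe set, 9 were above the floor on every conceptus array and 0 in FB, while ELF5 and KRT8 were below it everywhere. The summed linear signal of that list ran from 46100 to 51900 in AI, 52800 to 56400 in IVP and 51000 to 59700 in SCNT, against 65.2 to 66.6 in FB. Of 12 fibroblast markers, 10 were above the floor in FB, and 2 of the 12 in each conceptus group. COL1A1, COL1A2, COL3A1 and VIM were among the 10 below it on every conceptus array, whereas THY1 went the other way, at 4.06 to 5.32 in conceptuses and below the floor in FB. The list summed to 1420 to 2500 in AI, 2390 to 3010 in IVP, 1790 to 2380 in SCNT and 21400 to 22200 in FB.

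Other markers differed with origin. Of 6 leukocyte markers, 2 were above the floor on all AI arrays and 0 on all IVP or all SCNT arrays, with a summed signal of 292 to 667 in AI, 36.3 to 79.8 in IVP and 39 to 62.4 in SCNT, and PTPRC was below the floor everywhere. Of 4 erythroid markers only ALAS2 was above it, in AI, where the list summed to 84.7 to 248, against 22 to 22.8 in IVP and 21.5 to 22.6 in SCNT. Hypoblast or yolk sac markers summed to 3730 to 5320 in AI, 4220 to 5010 in IVP and 3080 to 3970 in SCNT, and 3 of 10 were above the floor on all arrays of each of these groups. All 4 uterine epithelium markers and both epiblast markers with a probe set (POU5F1, SOX2) were below the floor. The part of these cell types in the results was not tested, and in bulk tissue fewer cells of a type and less RNA per cell cannot be told apart. The mean signal of 18 spike-in probe sets was high on AI 2 (8.61), IVP 2 (8.61) and IVP 3 (8.57), against 7.69 to 8.08 on the other conceptus arrays.

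**Figure D1:**
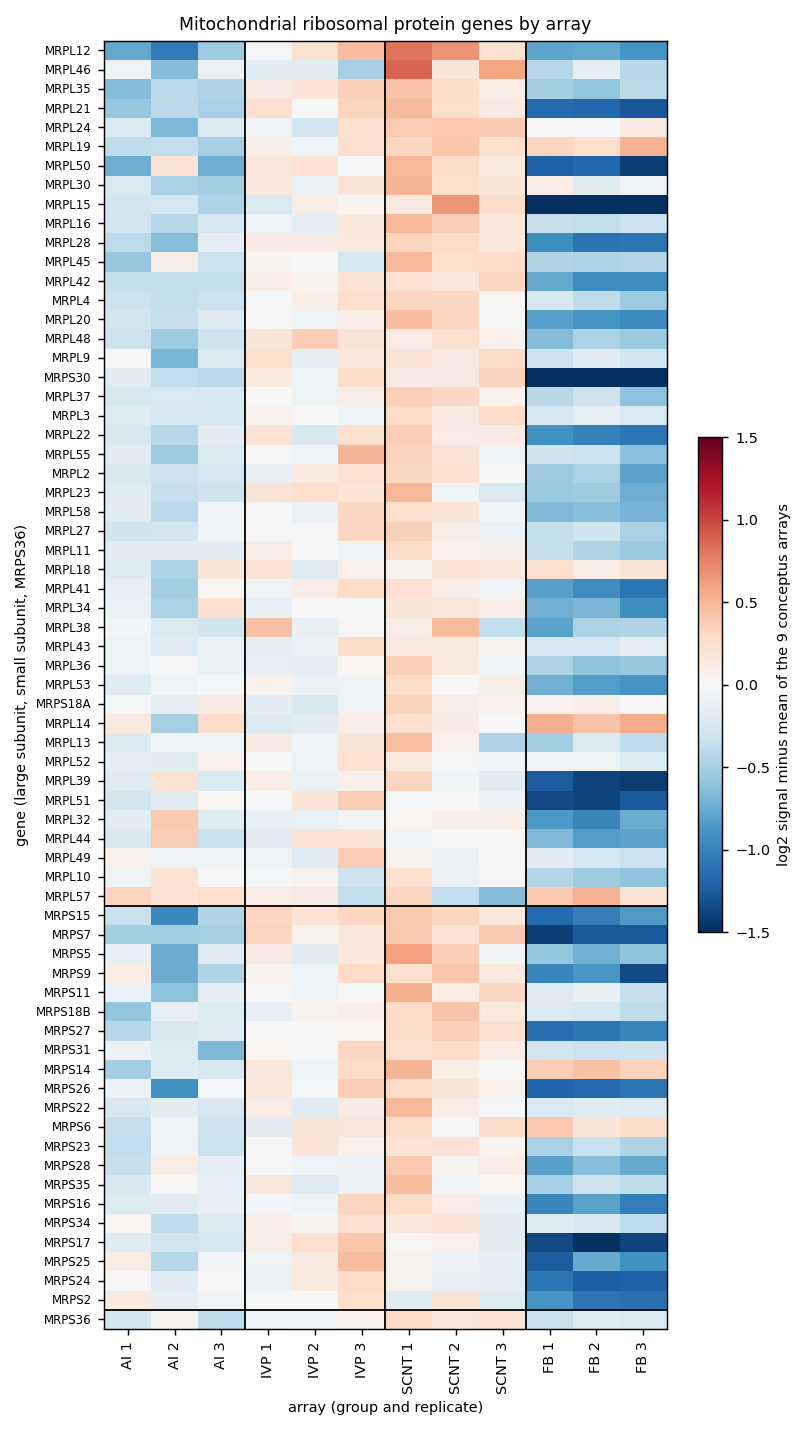
Log2 signal of each of the 67 genes (rows; large subunit, small subunit, MRPS36) on each of the 12 arrays (columns, by group), minus the gene's mean over the 9 conceptus arrays; values past the ends of the colour scale take the end colour. The AI columns are mostly blue and the SCNT columns mostly red, with a member median of -0.27 to -0.21 on the AI arrays and 0.06 to 0.30 on the SCNT arrays. Over all probe sets tested the median was -0.08 to -0.01 on the AI arrays and 0.03 to 0.06 on the SCNT arrays. On SCNT 3 both medians were 0.06.

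Mitochondrial ribosomal protein mRNAs were more abundant in SCNT than in AI conceptuses. Of the 67 genes 32 were called higher and 0 lower (limma; without adjustment, p was under 0.05 for 38 higher and 0 lower), which is 47.8% of the members. Over all probe sets tested 16.2% were called higher and 11.4% lower, and over the brightest probe sets of named genes 17.6% were called higher. The members' median difference was 0.43, against 0.08 over all probe sets, and 63 of the 67 differences were positive. In 41 genes every SCNT array lay above every AI array, whereas this held for 27.2% of all probe sets tested. Both subunits took part, with 21 of 45 large-subunit genes (median 0.45) and 10 of 21 small-subunit genes (median 0.41) called higher.

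The lowest of the 9 conceptus arrays was an AI array for 59 of the 67 genes (88.1%; 47.2% of all probe sets), and the highest was an SCNT array for 45 (67.2%; 41% of all probe sets). Group means ran in the order AI, IVP, SCNT in 46 genes, and AI, SCNT, IVP in 13. No share of all probe sets with these orders is given, so these 2 counts are description only. The members' median deviation from the mean of the conceptus arrays was -0.21, -0.27 and -0.21 on the AI arrays, 0.01, -0.03 and 0.19 on the IVP arrays, and 0.30, 0.17 and 0.06 on the SCNT arrays. Over all probe sets tested it was -0.03, -0.08 and -0.01 in AI, 0.01, -0.03 and -0.03 in IVP, and 0.03, 0.04 and 0.06 in SCNT. On SCNT 3, IVP 1 and IVP 2 the members' median thus equalled that of all probe sets. The spread of single members within a group was alike, with a median SD of 0.14 in AI, 0.16 in IVP and 0.15 in SCNT. AI 2 was the lowest of its group in 33 genes, SCNT 3 in 45 and IVP 2 in 37, while SCNT 1 and IVP 3 were each the highest of their group in 44. The number of calls moved with single arrays, from 32 to 21 without AI 3, to 19 without SCNT 1 (18 higher and 1 lower) and to 17 without SCNT 2. The members' median difference moved less, between 0.37 and 0.48 over the omission of each array.

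The largest difference was that of MRPL12, the homologue of the bacterial L7/L12 protein, which forms the flexible stalk that recruits translation factors. MRPL12 was at 6.07, 5.79 and 6.30 on the AI arrays, at 7.64, 7.51 and 7.07 on the SCNT arrays, and at 6.82, 7.07 and 7.30 on the IVP arrays. Every SCNT and every IVP array was above every AI array. The SCNT mean of 7.41 ± 0.30 exceeded the AI mean of 6.05 ± 0.25 by 1.35 (SE 0.19), a 2.56-fold difference with a 95% interval of 1.9 to 3.44 (adjusted p = 0.000923). The other stalk proteins did not pass the test: MRPL11, at the base of the stalk, differed by 0.31 (adjusted p = 0.0761) although its SCNT arrays, at 8.33, 8.11 and 8.14, were all above the AI arrays, each at 7.89. MRPL10, which anchors MRPL12 to the ribosome, differed by -0.01 with a 95% interval of -0.34 to 0.32, and its arrays overlapped.

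Proteins at and around the peptidyl transferase centre, where peptide bonds form, were called higher in 4 of 5 genes. The shares called higher were 47.8% over all members and 16.2% over all probe sets. The groups by position in the ribosome were drawn up after the data had been seen and serve as description only. MRPL16 lay at 7.24, 7.10 and 7.27 in AI and at 8.03, 7.90 and 7.70 in SCNT, a difference of 0.67 (adjusted p = 0.00553). MRPL3 lay at 7.32, 7.26 and 7.25 in AI and at 7.82, 7.66 and 7.79 in SCNT, a difference of 0.48 (adjusted p = 0.0107). In both genes all SCNT arrays lay above all AI arrays, and both calls held in every setting tried. MRPL4, which lines the tunnel for the nascent chain, rose by 0.55 and MRPL2 by 0.45. The call of MRPL4 ended without SCNT 2 (adjusted p = 0.052), and that of MRPL2 without SCNT 1, SCNT 2 or any AI array (adjusted p up to 0.107). MRPL27, the remaining gene of this group, differed by 0.33 (adjusted p = 0.144).

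The polypeptide tunnel ends at the inner membrane, where MRPL45 anchors the mitoribosome. MRPL24, a protein of the tunnel exit, was at 6.11, 5.65 and 6.10 in AI, at 6.28, 6.04 and 6.57 in IVP, and at 6.70, 6.73 and 6.72 in SCNT. Its SCNT arrays lay within 0.02 (SD) of their mean and above all other conceptus arrays, with a difference of 0.76 from AI (adjusted p = 0.00825). MRPL45 rose by 0.61 and MRPL22 by 0.47. The call of MRPL45 ended without any of AI 1, AI 3 and the 3 SCNT arrays (adjusted p up to 0.0923), and that of MRPL22 without any 1 of the 6 arrays (adjusted p up to 0.142). Of the other exit proteins, MRPL23 differed by 0.36 (adjusted p = 0.153) and MRPL44 by 0.05 (adjusted p = 0.859).

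In the central protuberance, the crown of the large subunit that contacts the small one, MRPL46 and MRPL48 were called higher. MRPL46 lay at 4.45, 3.87 and 4.42 in AI, at 4.36, 4.36 and 4.02 in IVP, and at 5.40, 4.70 and 5.11 in SCNT. It was the one gene of the 32 whose IVP mean equalled its AI mean to the second decimal (4.25 in both), and its SCNT arrays were all higher (5.07 ± 0.35, a difference of 0.82, adjusted p = 0.0163). That call ended without AI 2 or without SCNT 1 (adjusted p up to 0.0583). MRPL48 rose by 0.52, and its call ended without SCNT 2 (adjusted p = 0.0539). MRPS30, another large-subunit gene, also rose by 0.52, and its call ended without AI 3 or SCNT 3 (adjusted p up to 0.068). MRPL18, MRPL38, MRPL52 and MRPL58 differed by 0.29, 0.26, 0.12 and 0.34 and were not called.

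Among the remaining large-subunit genes, those of bacterial descent included several of the clearest differences. MRPL35 lay at 6.33, 6.57 and 6.53 in AI and at 7.41, 7.26 and 7.09 in SCNT, 1.71-fold higher (adjusted p = 0.00257). MRPL21 lay at 6.71, 6.88 and 6.79 in AI and at 7.76, 7.54 and 7.41 in SCNT, also 1.71-fold higher (adjusted p = 0.00322). MRPL19, which lies at the interface with the small subunit, was at 5.64, 5.66 and 5.53 in AI and at 6.34, 6.44 and 6.27 in SCNT, 1.67-fold higher (adjusted p = 0.00238). In these 3 genes no SCNT array reached down to an AI array. MRPL30 rose by 0.72, MRPL15 by 0.69, MRPL28 by 0.66 and MRPL20 by 0.54, of which the last was lost without any of AI 1, SCNT 1 and SCNT 2 (adjusted p up to 0.067). The calls of MRPL15 and MRPL24 held without each array and ended with no filter on low signals (adjusted p = 0.0669 and 0.0646). Over the whole class 14 of 26 bacterial-type large-subunit genes were called higher (median 0.48), against 7 of 19 that occur in mitochondria alone (median 0.26). Over all probe sets 16.2% were called higher, and the difference between these classes was not tested.

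The mitochondria-specific large-subunit genes that rose included MRPL42, MRPL37 and MRPL50. MRPL42 was at 6.88, 6.89 and 6.88 in AI and at 7.47, 7.41 and 7.56 in SCNT, a difference of 0.60 (adjusted p = 0.0039) with no overlap. MRPL37 rose by 0.49, and its call ended without SCNT 1 or SCNT 2 (adjusted p up to 0.0627). MRPL50 was at 6.38, 7.31 and 6.38 in AI and at 7.61, 7.40 and 7.26 in SCNT, so that AI 2 lay within the SCNT range. Its SD of 0.54 in AI was the largest of any member in any group, and its call (0.73, adjusted p = 0.0383) ended without any of AI 1, AI 3 and the 3 SCNT arrays (adjusted p up to 0.131).

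Small-subunit genes were led by MRPS15 and MRPS7, homologues of bacterial S15 and S7, which bind the small ribosomal RNA. MRPS15 was at 6.42, 5.79 and 6.30 in AI, at 7.15, 7.08 and 6.92 in SCNT and at 7.07, 6.97 and 7.08 in IVP. MRPS7 was at 5.63, 5.63 and 5.64 in AI, at 6.53, 6.35 and 6.53 in SCNT and at 6.47, 6.19 and 6.30 in IVP. For both genes every AI array lay below every other conceptus array, and AI 2 was the lowest array for MRPS15. MRPS15 was 1.84-fold higher in SCNT than in AI (adjusted p = 0.00385) and MRPS7 was 1.79-fold higher (interval 1.48 to 2.16, adjusted p = 0.00101). MRPS27, a mitochondria-specific protein with pentatricopeptide repeats, lay at 5.26, 5.45 and 5.49 in AI and at 5.96, 6.05 and 5.93 in SCNT, a difference of 0.58 (adjusted p = 0.00525). The calls of these 3 genes held in every setting.

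The other small-subunit genes called higher were MRPS5 (0.67), MRPS9 (0.62), MRPS11 (0.61), MRPS18B (0.60), MRPS31 (0.53), MRPS14 (0.52) and MRPS23 (0.40). In all 7 the call ended when single arrays were left out, with adjusted p up to 0.119 for MRPS5 (AI 2, AI 3, SCNT 1 or SCNT 2), 0.14 for MRPS9 (any of these or SCNT 3), 0.0699 for MRPS11 (AI 2, SCNT 1 or SCNT 3) and 0.0647 for MRPS18B (AI 1 or SCNT 2). The corresponding values were 0.126 for MRPS31 (AI 2, AI 3 or any SCNT array), 0.143 for MRPS14 (any AI array, SCNT 1 or SCNT 2) and 0.128 for MRPS23 (AI 1, AI 3 or any SCNT array). A second probe set of MRPS14 showed a difference of 0.61 but was not called (adjusted p = 0.0666). In the opposite direction, MRPS28 and MRPS35 were not called by their brightest probe sets (0.30 and 0.27), whereas second probe sets were (0.45, adjusted p = 0.0405, and 0.65, adjusted p = 0.0235). MRPS36, the gene counted apart, rose by 0.43 (adjusted p = 0.0383), a call that ended without AI 1, AI 3 or any SCNT array (adjusted p up to 0.127).

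Some members showed no difference that passed the test and had intervals around 0. MRPS24, the homologue of bacterial S3, was at 7.24, 7.08 and 7.24 in AI and at 7.29, 7.13 and 7.10 in SCNT, a difference of -0.01 (interval -0.31 to 0.29). MRPL49 was at 5.84, 5.69 and 5.72 in AI and at 5.81, 5.67 and 5.78 in SCNT, a difference of 0.00 (interval -0.35 to 0.35). The arrays of the groups overlapped in both genes, and both intervals end below 0.40, the smallest difference among the called members. MRPL57 had the lowest difference of the family, at 6.59, 6.48 and 6.53 in AI, 6.38, 6.40 and 5.90 in IVP, and 6.58, 5.90 and 5.61 in SCNT. SCNT 1 lay with the AI arrays and the other SCNT arrays far below, for a difference of -0.50 (adjusted p = 0.128), which became -0.78 (adjusted p = 0.0166) without SCNT 1. A second, dimmer probe set of MRPL57 went the other way (0.35, adjusted p = 0.326), so no direction is given for this gene.

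**Figure D2:**
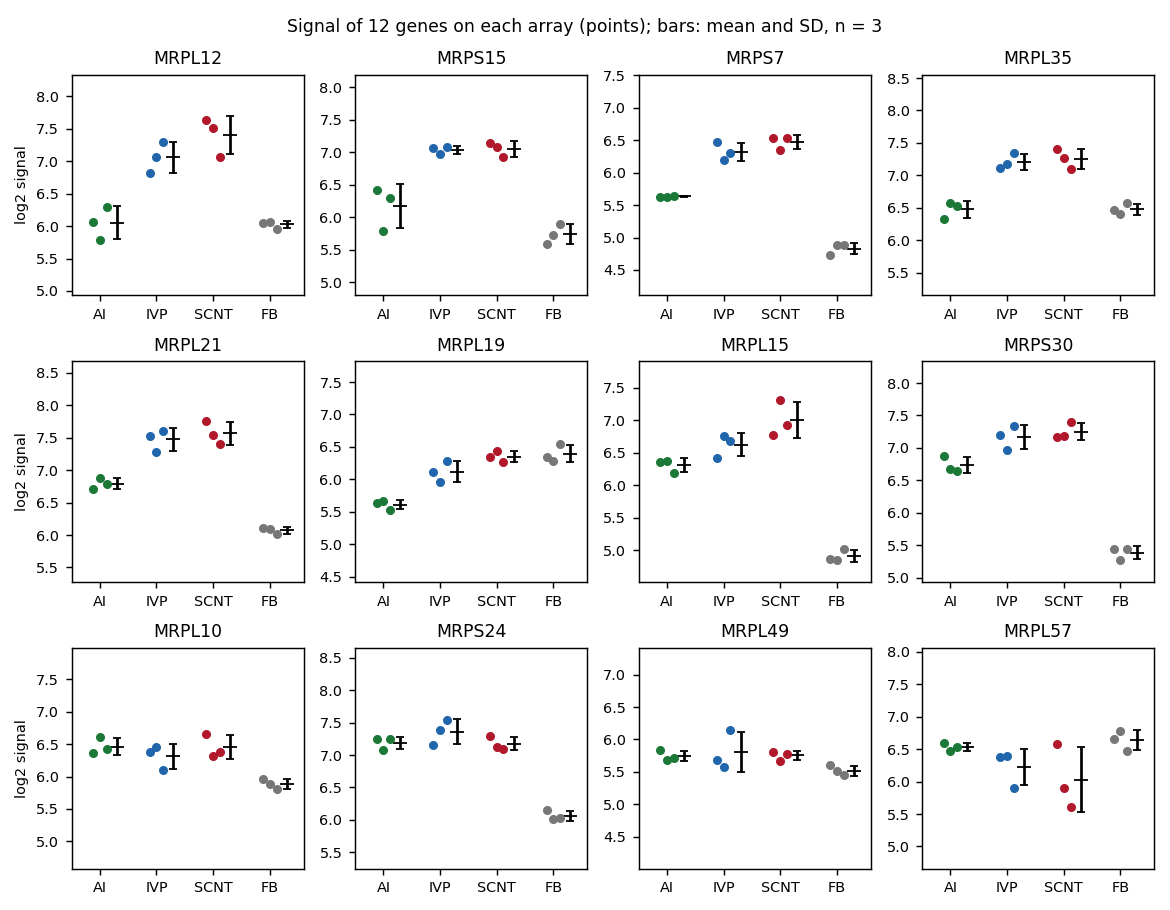
Log2 signal of 12 genes on each array (points) with the group mean and SD (bars, n = 3); all panels span the same number of log2 units. MRPL12, MRPS15, MRPS7, MRPL35 and MRPL21 lie lower on every AI array than on every IVP and SCNT array, MRPL10, MRPS24 and MRPL49 overlap among the conceptus groups, and the SCNT arrays of MRPL57 spread with an SD of 0.50.

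IVP conceptuses also differed from AI conceptuses, in fewer genes. Of the 67 members 12 were called higher and 0 lower (limma; without adjustment, p was under 0.05 for 26 higher and 0 lower), or 17.9%, against 8.42% called higher and 9.49% called lower over all probe sets and 9.48% called higher over named genes. The median difference was 0.30, against 0.02 over all probe sets, and 61 differences were positive. All IVP arrays were above all AI arrays in 32 genes, against 20.1% of all probe sets. They were all below in 1 gene, MRPL57, which was not called (-0.31, adjusted p = 0.384). The share of all probe sets in that direction is not given. By subunit, 9 of 45 large-subunit and 3 of 21 small-subunit genes were called higher.

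The largest differences were again those of MRPL12 and MRPS15. MRPL12 was 2.02-fold higher in IVP than in AI (interval 1.5 to 2.72, adjusted p = 0.0061), and MRPS15 was 1.83-fold higher (interval 1.42 to 2.36, adjusted p = 0.00576). MRPL35 rose by 0.73, MRPS7 by 0.69, MRPL21 by 0.68 and MRPL48 by 0.63. These 6 genes stayed called when any 1 array was left out. MRPL28 (0.52), MRPL19 (0.50), MRPS17 (0.49), MRPL30 (0.49), MRPL42 (0.48) and MRPL4 (0.44) were called as well, but each lost its call without some array. The adjusted p reached 0.0743 for MRPL28 (AI 1, AI 2 or any IVP array), 0.0756 for MRPL19 and 0.123 for MRPL30 (AI 3, IVP 1 or IVP 3 for both, AI 1 for the former and AI 2 for the latter), 0.0832 for MRPS17 (AI 1, AI 3, IVP 2 or IVP 3), 0.0568 for MRPL42 (AI 1, AI 3 or IVP 3) and 0.136 for MRPL4 (any of the 6 arrays).

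The genes called in IVP were shared with SCNT in all cases but 1: 11 genes were called higher in both comparisons with AI, 21 in SCNT against AI alone, and MRPS17 in IVP against AI alone. Both comparisons use the same AI arrays, so they are not independent, and the matching shares over all probe sets are not given. MRPS17, a small-subunit protein, was at 7.12, 7.03 and 7.04 in AI, 7.42, 7.55 and 7.72 in IVP, and 7.33, 7.38 and 7.15 in SCNT. Its SCNT arrays lay between the other groups, with a difference of 0.22 from AI (adjusted p = 0.221). The number of IVP calls moved from 12 to 7 without AI 3 and to 6 without IVP 3.

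A measure of RNA quality taken from 1 gene was highest on IVP 2 and IVP 3, while IVP 1 lay within the range of the AI and SCNT arrays. The log2 signal of the GAPDH probe set at the 3′ end exceeded that at the 5′ end by 0.22, 0.21 and 0.38 on the AI arrays, 0.28, 0.45 and 0.38 on the SCNT arrays, and 0.35, 0.51 and 0.89 on the IVP arrays. With this gap as a covariate 1 of the 12 IVP calls remained, that of MRPS7, and when AI 2, IVP 2 and IVP 3, whose spike-in signal was highest, were left out, there were 2 calls. The part of RNA quality in the result was not tested beyond these fits. The median difference was 0.22 with the covariate and 0.26 without those arrays. For SCNT against AI the same settings left 24 calls each and medians of 0.41 and 0.42.

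**Figure D3:**
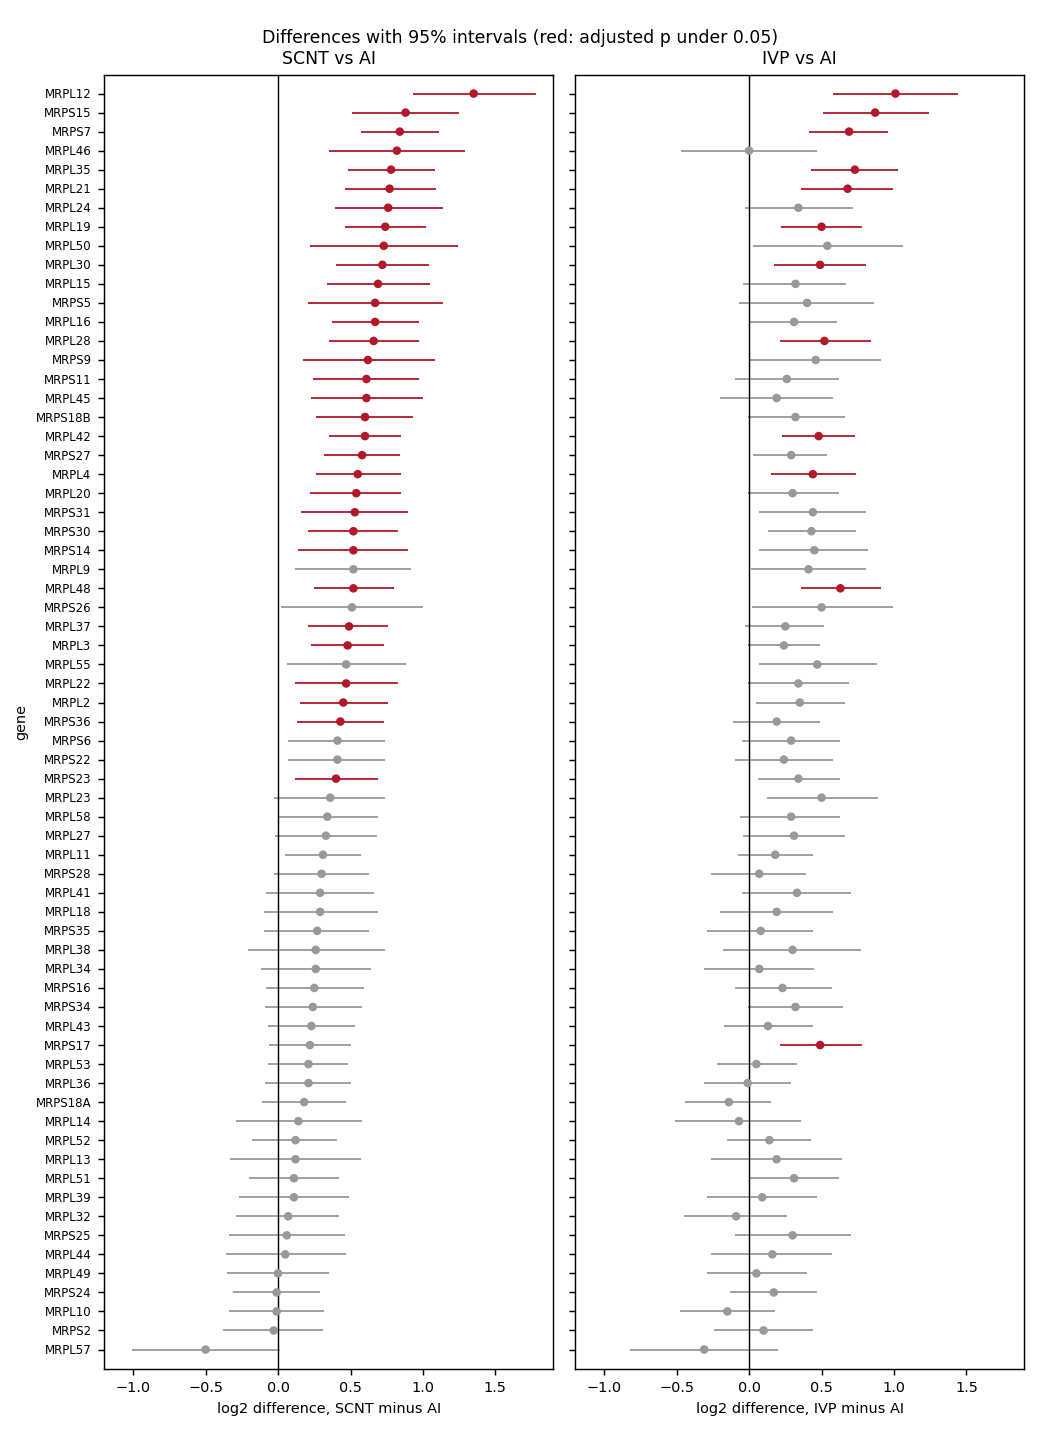
Log2 differences of the 67 genes from AI (points) with 95% intervals (lines), for SCNT (left) and IVP (right), in the order of the SCNT difference; red marks an adjusted p under 0.05. Of the SCNT differences 63 lie to the right of 0 and 32 are red, and of the IVP differences 61 lie to the right of 0 and 12 are red.

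A direct comparison of SCNT with IVP conceptuses called 0 of the 67 genes in either direction (limma; without adjustment, p was under 0.05 for 7 higher and 0 lower), and 0.232% of all probe sets were called higher and 0.348% lower. The members' median difference was 0.11, against 0.06 over all probe sets. MRPL46 showed the largest difference, 0.82 (interval 0.35 to 1.29, adjusted p = 0.139), with every SCNT array above every IVP array. MRPL45 differed by 0.42 (interval 0.04 to 0.81, adjusted p = 0.339), MRPL24 by 0.42 (0.04 to 0.79, adjusted p = 0.333) and MRPL15 by 0.38 (0.02 to 0.73, adjusted p = 0.362). For MRPL12 the difference was 0.34 with an interval of -0.09 to 0.77, and for MRPS17 it was -0.27 with an interval of -0.56 to 0.01. The 21 genes called in SCNT and not in IVP are therefore not shown to differ between these groups.

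Each conceptus group was next set against the donor fibroblasts. The median of all probe sets tested was itself shifted, by 0.11 in AI, 0.14 in IVP and 0.20 in SCNT against FB, and the members' medians of 0.29, 0.68 and 0.70 are to be read against these. In AI 31 members were called higher and 6 lower, in IVP 50 higher and 2 lower, and in SCNT 57 higher and 1 lower. Calls against fibroblasts were common, with 41.6%, 43% and 45% of all probe sets called higher and 35.6%, 35.7% and 34.8% called lower in AI, IVP and SCNT. The members' shares called higher were 46.3%, 74.6% and 85.1%, so the AI share was close to the background. The 3 comparisons share the FB arrays. SD within FB was small, with a median of 0.09 over the members. The GAPDH gap was 0.06, 0.06 and 0.01 on the FB arrays, against 0.21 to 0.89 on the conceptus arrays. The mean spike-in signal was 7.52, 7.44 and 7.33 on the FB arrays, against 7.69 to 8.61. Both measures separate FB from every conceptus array, so their part in these comparisons cannot be told apart from that of cell type.

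The genes highest in conceptuses relative to fibroblasts were MRPL15 and MRPS30. MRPL15 was at 4.86, 4.84 and 5.01 in FB, 6.36, 6.38 and 6.18 in AI, 6.42, 6.76 and 6.68 in IVP, and 6.78, 7.31 and 6.92 in SCNT. MRPS30 was at 5.44, 5.27 and 5.44 in FB, 6.87, 6.68 and 6.65 in AI, 7.20, 6.97 and 7.33 in IVP, and 7.17, 7.18 and 7.40 in SCNT. All conceptus arrays lay above all FB arrays in both genes. MRPL15 was 2.64-fold higher in AI (adjusted p = 1.78e-06), 3.29-fold in IVP (adjusted p = 2.66e-07) and 4.27-fold in SCNT (adjusted p = 3.92e-08), and MRPS30 was 2.55-fold, 3.44-fold and 3.66-fold higher. Other large rises in AI were those of MRPL39 (1.29), MRPL51 (1.19), MRPS17 (1.18), MRPS24 (1.12), MRPS2 (1.01) and MRPL32 (0.87).

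MRPS7, MRPL21 and MRPL12, which were also called against AI, were among the genes that rose against fibroblasts in IVP and SCNT. MRPS7 exceeded its FB level (4.73, 4.88 and 4.88) by 0.80 in AI, 1.49 in IVP and 1.64 in SCNT. MRPL21 exceeded its FB level by 0.72, 1.40 and 1.50. MRPL50, which was not called in IVP against AI (0.54, adjusted p = 0.128), exceeded its FB level by 0.84, 1.39 and 1.57. MRPL12 was at 6.05, 6.07 and 5.96 in FB, which overlapped the AI arrays (a difference of 0.03, adjusted p = 0.898), and was higher by 1.04 in IVP and 1.38 in SCNT. In all, 31 members were called higher in every conceptus group and 24 were called higher in SCNT but not called in AI. The matching shares over all probe sets are not given. In each single comparison, 41.6% to 45% of all probe sets were called higher, so calls in common are frequent in the background too. MRPL28 and MRPS9 had FB means below the floor, so their folds are bounds: MRPL28 was at least 1.09-fold higher in AI, 1.56-fold in IVP and 1.71-fold in SCNT, and MRPS9 at least 1.1-fold, 1.51-fold and 1.7-fold.

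MRPL19 and MRPS14 stood out among the members lower in AI conceptuses than in fibroblasts. MRPL19 was at 6.35, 6.29 and 6.55 in FB, above all AI arrays and overlapping the SCNT arrays, with differences of -0.79 in AI (adjusted p = 3.05e-05), -0.28 in IVP (adjusted p = 0.0313) and -0.05 in SCNT (adjusted p = 0.683). The IVP call ended without any of IVP 1, IVP 2, FB 1 and FB 3 (adjusted p up to 0.181). MRPS14 was at 6.86, 6.92 and 6.82 in FB, with differences of -0.71 in AI (adjusted p = 0.000818), -0.27 in IVP (adjusted p = 0.118) and -0.19 in SCNT (adjusted p = 0.246). The SCNT difference was called without SCNT 1 (-0.35, adjusted p = 0.0305).

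The other members lower in AI than in FB were MRPL14, MRPS6, MRPL24 and MRPL30. MRPL14 was at least 1.27-fold lower in AI and at least 1.34-fold lower in IVP, since its means there were below the floor, and the AI call ended with no filter on low signals (adjusted p = 0.0552). MRPS6 differed by -0.52 in AI. MRPL24 and MRPL30 were lower than FB in AI (-0.40 and -0.36) and higher in SCNT (0.36 in both genes), but the AI calls ended without AI 2, FB 1 or FB 3 for MRPL24 (adjusted p up to 0.112) and without these or AI 3 for MRPL30 (adjusted p up to 0.116). The SCNT calls ended without any 1 of the SCNT and FB arrays for MRPL24 (adjusted p up to 0.126) and without SCNT 1, FB 2 or FB 3 for MRPL30 (up to 0.109). In SCNT the single member called lower was MRPL57 (-0.61, adjusted p = 0.0218), and this call ended without SCNT 2, SCNT 3 or FB 2 (adjusted p up to 0.102). A second probe set of MRPL57 was not called in SCNT (-0.38, adjusted p = 0.147). It was called lower in AI (-0.74, adjusted p = 0.0124) and IVP (-0.91, adjusted p = 0.00335), where the brightest probe set was not called. Of all members, 4 were not called in any of the 6 comparisons: MRPL18, MRPL49, MRPL52 and MRPS18A. MRPL18 was called lower in AI than in FB without AI 3 (-0.51, adjusted p = 0.00535).

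**Figure D4:**
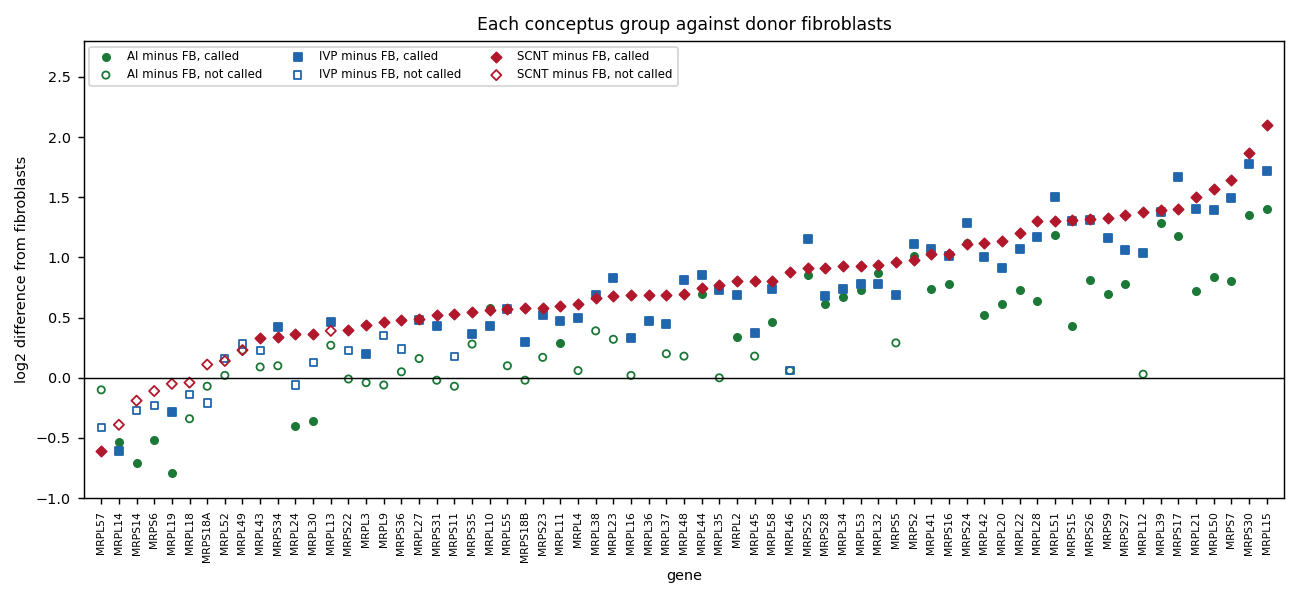
Log2 difference of each conceptus group from FB for the 67 genes, in the order of the SCNT difference; filled symbols mark an adjusted p under 0.05 and open symbols the rest. The SCNT symbols are filled and above 0 in 57 genes, the IVP symbols in 50 and the AI symbols in 31.

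Mitoribosome proteins whose symbols do not begin with MRP were examined from a list of 6. In SCNT against AI 4 of the 6 were called higher and 0 lower (median 0.53), and the same number in IVP against AI. Over all probe sets 16.2% were called higher in SCNT (median 0.08) and 8.42% in IVP (median 0.02). One of the 6, ICT1, is listed on the array as the member MRPL58 and was not called (0.34). CHCHD1 went the other way, at 6.96 ± 0.12 in AI, 6.77 ± 0.13 in SCNT and 6.92 ± 0.24 in IVP. Its differences of -0.19 in SCNT and -0.04 in IVP were not called. DAP3, a GTP-binding protein of the small subunit, was at 5.53, 5.58 and 5.50 in AI, 6.33, 6.05 and 6.21 in SCNT, and at 5.96 ± 0.05 in IVP, with differences of 0.66 in SCNT (adjusted p = 0.00322) and 0.42 in IVP (adjusted p = 0.0359). PTCD3, a pentatricopeptide protein of the small subunit, was at 5.18, 4.81 and 5.24 in AI, 5.96, 5.90 and 5.94 in SCNT, and 5.48, 5.61 and 5.97 in IVP, with differences of 0.86 and 0.61. No SCNT or IVP array of either gene overlapped the AI arrays. AURKAIP1 rose by 0.54 and 0.45, and GADD45GIP1 by 0.51 and 0.79. The SCNT call of GADD45GIP1 ended without SCNT 1, SCNT 2 or any AI array (adjusted p up to 0.153). The IVP calls ended without AI 1, AI 2 or IVP 3 for PTCD3 (adjusted p up to 0.0867), without AI 1, AI 3 or any IVP array for DAP3 (up to 0.107) and without any 1 of the 6 arrays for AURKAIP1 (up to 0.12). All 4 IVP calls also ended with the GAPDH gap as a covariate (adjusted p of 0.107 to 0.328) and without AI 2, IVP 2 and IVP 3 together (0.177 to 0.378), and of the 19 genes named from lists other than the members in IVP against AI 0 kept their call in every setting.

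Genes that build the mitoribosome or work with it were examined from further lists, to be read against the 16.2% of all probe sets called higher. Of 15 assembly and rRNA modification genes 4 were called higher in SCNT than in AI and 0 lower (median 0.30): MTERF3 (0.93), MPV17L2 (0.92), C1QBP (0.81) and MALSU1 (0.63), of which all but C1QBP were also called in IVP. Of 9 translation factors 3 were called higher (median 0.25): the elongation factor TSFM (0.76), MTRF1L (0.37) and GUF1, which was at least 1.12-fold higher because its AI mean was below the floor. GUF1 passed the filter on low signals only through its SCNT arrays (4.35, 4.06 and 4.09), with IVP 3 (4.09) also above log2 4. Its call is therefore description only. Of 11 mitochondrial tRNA synthetase and amidotransferase genes CARS2 (0.49) and GATC (0.45) were called, a share of 18.2% that is near the background. Of 10 genes for mitochondrial DNA upkeep and transcription 5 were called higher (median 0.47): PNPT1 (1.13), the single-stranded DNA-binding protein SSBP1 (0.70), ELAC2 (0.67), SUPV3L1 (0.53) and the transcription factor TFB2M. MTRF1L lost its call without any 1 of the 6 arrays (adjusted p up to 0.128), GATC without any of these but SCNT 2 (up to 0.133), CARS2 without AI 1, AI 2 or SCNT 2 (up to 0.098) and ELAC2 without AI 1, AI 2, SCNT 1 or SCNT 2 (up to 0.146). In IVP the call of MALSU1 ended without AI 1, AI 3, IVP 2 or IVP 3 (adjusted p up to 0.093). Of 9 listed regulators of nuclear genes for mitochondrial proteins, 5 had a probe set and only 3 were tested: PPRC1, YY1 and MYC. These 3 had differences of 0.03 to 0.22, and 0 were called (0 at an unadjusted p under 0.05). NRF1, GABPA, GABPB1, PPARGC1A, PPARGC1B and ESRRA were not tested, so nothing is said about them.

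The cytosolic ribosome and the respiratory chain gave lower shares than the mitochondrial ribosomal proteins. Of 64 cytosolic ribosomal protein genes 2 were called higher in SCNT than in AI, RPS27L (0.95) and RPL22 (0.41), and the median difference was 0.09, near that of all probe sets. Of 74 nuclear genes for oxidative phosphorylation subunits 9 were called higher (median 0.17), led by UQCRQ (0.79), UQCRB (0.59), NDUFB9 (0.56) and ATP5MC1 (0.51). Calls ended without AI 1, AI 3, SCNT 1 or SCNT 2 for RPS27L (adjusted p up to 0.124) and ATP5MC1 (up to 0.133), without AI 1, AI 2 or any SCNT array for RPL22 (up to 0.0969) and without SCNT 2 for NDUFB9 (0.0538). In IVP against AI the counts were 2 of 64 (3.12%) and 8 of 74 (10.8%), against 8.42% of all probe sets. The medians of the 2 lists were 0.12 and 0.19, against 0.02 over all probe sets, and the oxidative phosphorylation share was slightly above the background. None of these genes was called lower in either comparison by limma (0 at an unadjusted p under 0.05 for the cytosolic list, and 0 in SCNT and 1 in IVP for oxidative phosphorylation). The differences between these lists and the mitochondrial ribosomal proteins were not tested.

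**Figure D5:**
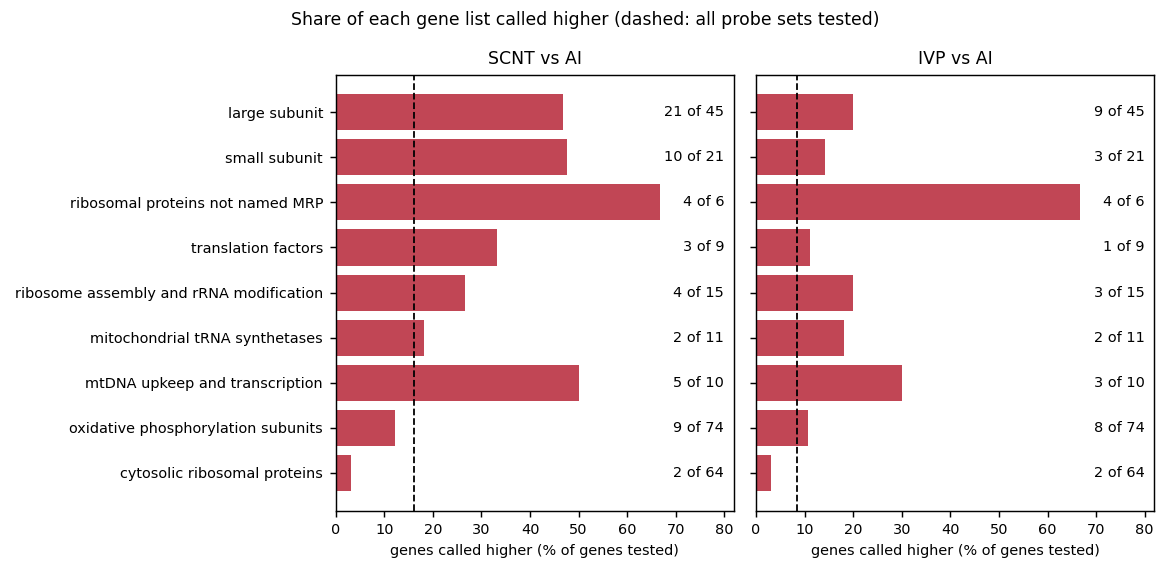
Share of the tested genes of each list called higher (bars, in percent, with counts) in SCNT against AI (left) and IVP against AI (right); dashed lines mark the share over all probe sets, 16.2% and 8.42%. In SCNT against AI the bars of both mitoribosome subunits pass the line, with 21 of 45 and 10 of 21 genes, and those of the cytosolic ribosome (2 of 64) and oxidative phosphorylation (9 of 74) do not reach it.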

How the data were processed

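Biotin-labelled RNA amplified from total RNA was hybridized to 12 arrays, per the labels' protocols. The deposited table holds log2 signals from 2.42 to 13.66; the submitters' processing notes name GCRMA and limma, with no version, and whether the 12 arrays were normalized jointly is not stated there. Of 24128 probe sets 112 controls were left out, 13292 had 1 symbol, 86 several and 10638 none; 13263 matched a gene ID of the RefSeq table of assembly ARS-UCD2.0, which changed 0 symbols. Levels were not compared between probe sets of different genes.

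Log2 values were used as deposited. The test took probe sets that passed log2 4 on 3 or more arrays, in limma 3.58.1 (R 4.3.3; lmFit, eBayes, two-sided, Benjamini-Hochberg): 6892 in the fit of 9 conceptus arrays (6 residual degrees of freedom) and 8164 in the fit of 12 (8). The procedure was tested on simulated data. Where a group's mean was below 4, each of its arrays below 4 was set to 4 and the fold is a lower bound.

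Named were all members called in a conceptus comparison (up to 30 by size), 8 per direction against FB, and up to 4 called genes per other list; MRPS36, MRPS23, NGRN, TFB2M and uncalled members were named after their values were seen. Members, lists and tests were chosen with earlier results of these data known. Spike-in and GAPDH settings and the groups by ribosomal position were added after seeing the data. A planned search of promoters for motifs was not run.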

Additional observations from a re-analysis of the deposited data

How the results depend on the processing

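In SCNT against AI the 32 calls fell to 15 with no filter on low signals, where more probe sets were tested, and to between 17 and 24 when single arrays were left out. Other settings gave 24 to 36 calls, 26 each after quantile normalization and median centring. In IVP against AI the 12 calls fell to 6 with no filter, to 1 with the GAPDH gap as a covariate and to 2 without the 3 arrays of highest spike-in signal, and lay between 6 and 11 without single arrays; the cause was not tested. With the replicate block there were 27 calls for SCNT and 11 for IVP, but the replicate numbers did not pair the arrays, since deviations of same-numbered arrays correlated between -0.15 and 0.24. SCNT against IVP had 0 calls in every setting. The median against FB was 0.57 in IVP with the mean of all probe sets per gene, or with the dimmest, and 0.69 to 0.83 in SCNT without single arrays. Of the named members 12 of 30 in SCNT against AI and 1 of 12 in IVP against AI kept their call in every setting, and 0 reversed.

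The arrays' number limits these tests. Members with a group mean below the floor, such as MRPL14, MRPL28 and MRPS9 in the comparisons with FB, have bounds in place of folds. Between conceptus groups MRPL28, MRPS9 and MRPL46 have plain differences, although AI 2 lay below the floor in each (3.87, 3.75 and 3.87).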

Other observations

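The partners of the mitoribosome also differed between conceptuses and donor fibroblasts. DAP3, whose FB mean was below the floor, was at least 2.9-fold higher in AI, 3.88-fold in IVP and 4.58-fold in SCNT, and PTCD3 at least 2.01-fold, 3.08-fold and 3.66-fold. Of 10 genes for mitochondrial DNA upkeep and transcription 5 were called higher than in FB in AI, 9 in IVP and 10 in SCNT, with 0 called lower by limma (0 lower at an unadjusted p under 0.05 in each). Over all probe sets 41.6%, 43% and 45% were called higher, so the AI share of 50% was close to the background. The mitochondrial polymerase POLG was at least 2.14-fold, 2.2-fold and 2.88-fold higher, while PNPT1 differed from FB by -0.18 in AI (adjusted p = 0.266), 0.58 in IVP (adjusted p = 0.00224) and 0.95 in SCNT (adjusted p = 4.98e-05). NGRN, which takes part in mitoribosome assembly, was lower than in FB in all 3 groups (-1.30, -0.98 and -1.10). COX7A1, the form of a cytochrome c oxidase subunit known from heart and muscle, had a mean below the floor in every conceptus group and was at least 2.21-fold lower than in FB. It passed the filter on low signals only through the FB arrays (5.35, 4.98 and 5.11), so this difference is description only.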
